A study of Mus musculus with 6 samples.

Results

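The genes described here are those for ubiquitin-conjugating enzymes (E2s) that carry a Ube2 symbol, compared between primary mouse lung endothelial cells treated with hydrogen peroxide (H2O2) and their controls. Members were chosen by name alone, as every gene symbol in the count tables made of Ube2, a letter and any further letters or digits, which gave 38 of 33006 genes. The cells were cultured pulmonary endothelial cells of C57BL/6 mice, grown to 80% confluence. The H2O2 group of 3 libraries received 300 uM H2O2 for 6 hours, and the control group of 3 libraries received water for the same time. Messenger RNA libraries were made from 100 ng of total RNA each. Nothing in the labels tells whether the numbered libraries of a group are separate cultures, so each p-value reflects the spread of these libraries alone, and that spread may be technical.

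Ubiquitin is passed along a relay of enzymes. An activating enzyme (E1) charges it, an E2 carries it on a cysteine of its active site, and a ligase (E3) brings the charged E2 to the protein to be marked. Each E2 works with its own set of ligases, and some carry ubiquitin-like proteins such as NEDD8 or ISG15 in place of ubiquitin. Endothelial cells use the system to remove damaged proteins, to repair DNA, to control signalling and to move through the cell cycle, and the catalytic cysteines of its enzymes can be oxidised.

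Gene counts ran between 26042296 and 27618679 in H2O2 libraries and between 22455388 and 25626849 in control libraries. Endothelial markers summed to 4927 to 4960 CPM (normalised counts scaled to a common library size) in H2O2 libraries and 4677 to 4772 CPM in control libraries, and epithelial markers to 1.96 to 2.08 CPM in H2O2 libraries and 1.39 to 2.24 CPM in control libraries. Mesenchymal markers summed to 29.6 to 34.3 CPM in H2O2 libraries and 32.3 to 34.5 CPM in control libraries, and leukocyte markers to 164 to 172 CPM in H2O2 libraries and 158 to 166 CPM in control libraries. The epithelial genes Sftpc, Scgb1a1, Krt8 and Krt5, the collagen gene Col1a2 and the T cell gene Cd3e were at 0 in all 6 libraries. H2O2 replicate 3 stood apart from the other libraries in the gene Gm26924, with 99088 counts against 245407 to 305840 in the other 5. The E2 calls below are also given without that library where it changed them.

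The E2s share a short catalytic stretch, shown here for 5 genes that passed the test below and for 3 relatives that did not. Each line is read from the coding sequence of 1 transcript (GENCODE M21, mm10), with the His-Pro-Asn codons and the codon of the active-site cysteine in capitals.
Ube2c: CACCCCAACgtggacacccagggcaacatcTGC
Ube2s: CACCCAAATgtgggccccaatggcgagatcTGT
Ube2a: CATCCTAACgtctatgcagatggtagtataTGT
Ube2b: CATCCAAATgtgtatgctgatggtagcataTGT
Ube2g2: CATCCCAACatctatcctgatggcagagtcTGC
Ube2g1: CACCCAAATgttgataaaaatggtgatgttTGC
Ube2f: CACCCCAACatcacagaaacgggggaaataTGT
Ube2m: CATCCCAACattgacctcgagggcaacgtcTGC
The stretch is 33 bases long in each, on the coding strand, with 7 codons between the 2 capital blocks. It lies at chr2:164771947-164771979 in Ube2c, chr7:4810479-4810511 in Ube2s, chr1:91276419-91276451 in Ube2f and chr7:13036226-13036258 in Ube2m. In Ube2a, Ube2b, Ube2g2 and Ube2g1 it is joined across an intron. Of the 37 members with a coding sequence, 23 held His-Pro-Asn codons and 20 held the cysteine codon at this spacing. Ube2w and Ube2o were among those without a match.

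Of the 38 genes, 32 had enough counts to be tested. Ube2v1, a catalytically inactive partner of Ube2n, had 6, 10 and 5 counts in H2O2 libraries and 11, 10 and 7 in control libraries. The annotation places 61.5% of its exon bases under another gene on the same strand, Gm20431, and 91.2% of its 50-base words occur in other genes, so these counts are not a measure of its RNA. Ube2d2b, an intronless relative of Ube2d2a, had 2, 3 and 2 counts in H2O2 libraries and 2, 1 and 1 in control libraries, and Ube2u had 0 counts in the H2O2 libraries and 1 in control replicate 2. Ube2dnl1, Ube2dnl2 and Ube2d4, which is annotated as a processed pseudogene, were at 0 in all 6 libraries.

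Levels of the tested genes spanned a wide range, measured as mean CPM per kilobase of transcript over the 6 libraries. Ube2c, the initiating E2 of the anaphase-promoting complex, was highest with a level of 192 CPM per kilobase, and Ube2ql1, a little-studied relative of the Ube2q genes, was lowest at 3.10, a 62.0-fold span. Ube2c had 202 CPM per kilobase in H2O2 cells and 182 in control cells, and Ube2m, an E2 for NEDD8, had 129 in H2O2 cells and 131 in control cells. Next came Ube2s, the chain-extending E2 of the anaphase-promoting complex, with 130 CPM per kilobase in H2O2 cells and 112 in control cells. Ube2d3, a broad partner of RING ligases, had 71.7 in H2O2 cells and 69.9 in control cells. All members together took 0.264% ± 0.00368 of gene counts in H2O2 libraries and 0.261% ± 0.00162 in control libraries (SD, n = 3 each).

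**Figure D1:**
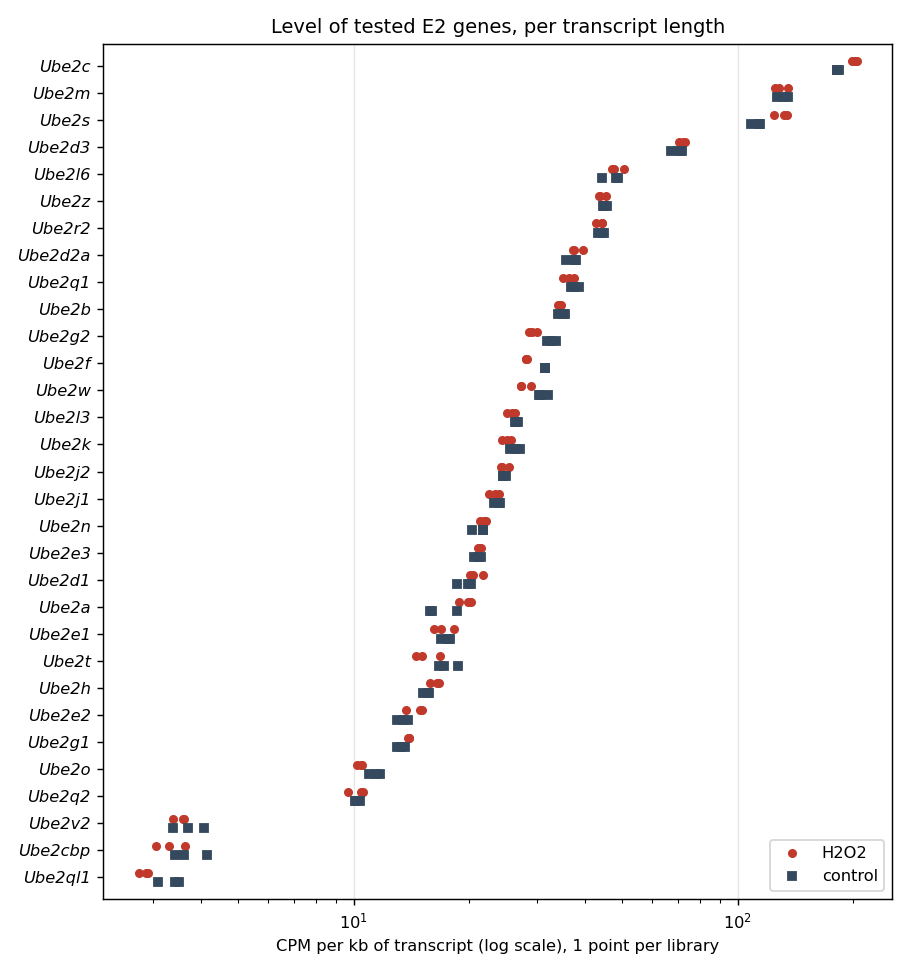
Levels of tested E2 genes, ordered by mean level, with CPM per kilobase of transcript on a log axis and 1 point per library (circles H2O2, squares control). Ube2c lies at the top with 202 CPM per kilobase in H2O2 cells and 182 in control cells, and the order of the genes is nearly the same in both groups.

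After H2O2, 3 of the 32 tested genes rose (Ube2c, Ube2s and Ube2a) and 4 fell (Ube2g2, Ube2f, Ube2w and Ube2o), by edgeR's quasi-likelihood test over all 12924 tested genes with Benjamini-Hochberg adjustment and a threshold of 0.05. That is 9.38% of the tested members higher, where 9.7% of all tested genes were higher, and 12.5% lower, where 10.8% of all tested genes were lower. In either direction it is 21.9% of the members, where 20.5% of all tested genes passed, so the count of E2 genes called was near the background. All H2O2 libraries lay above all control libraries for 5 members (background 16.5%) and below them for 6 (background 18.2%), together 34.4% of the members against 34.6% of all tested genes.

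The changes were small. Log2 fold changes (H2O2 over control) ran between -0.23 for Ube2ql1, which did not pass the test, and 0.23 for Ube2a, and none of the 32 reached a 1.2-fold change, which 11.8% of all tested genes did. The median log2 fold change was -0.01 in the members and -0.004 in all tested genes, and the median size regardless of sign was 0.06 in the members and 0.09 in all tested genes. Of the 25 members that did not pass, 21 had a log2 fold change within 0.1 of 0.

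**Figure D2:**
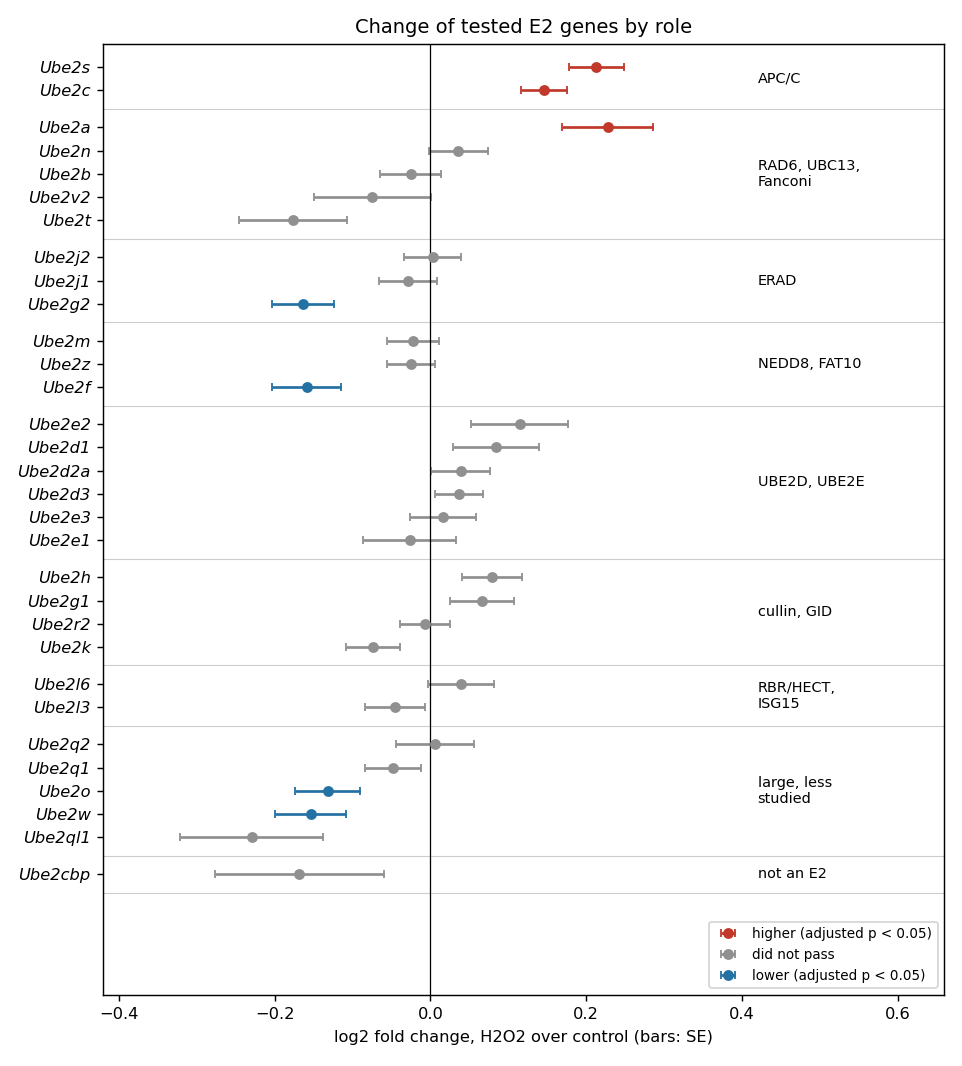
Log2 fold change (H2O2 over control) of tested E2 genes, each with its standard error, grouped by role. Both E2s of the anaphase-promoting complex (APC/C) and Ube2a lie to the right of 0, Ube2g2, Ube2f, Ube2w and Ube2o lie to the left, and every tested UBE2D and UBE2E gene is grey, which marks genes that did not pass the test.

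The anaphase-promoting complex is the ligase that removes cyclins and securin to let cells leave mitosis. Both of its E2s rose. Ube2c, which starts the chains, had 197, 192 and 196 CPM in H2O2 libraries, against 176, 176 and 177 CPM in control libraries. All 3 H2O2 libraries lay above all 3 controls, with a log2 fold change of 0.15 ± 0.030 (SE) and an adjusted p of 0.00074. Ube2s, which extends them, had 166, 153 and 163 CPM in H2O2 libraries, against 141, 141 and 134 CPM in control libraries. Again the groups did not overlap, and the log2 fold change was 0.21 ± 0.035 with an adjusted p of 5.9e-05.

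Short transcripts as a class were higher after H2O2. The 983 tested genes with transcripts under 1 kilobase had a median log2 fold change of 0.11, and the Ube2c transcript is 967 bases long. When the fit carried a per-library correction for transcript length and GC content (the length and GC offset), Ube2c had a log2 fold change of 0.07 and an adjusted p of 0.091, and Ube2s kept its call with 0.13. Ube2s overlaps the ribosomal protein gene Rpl28 on the opposite strand over 3.56% of its exon bases, and Rpl28 itself rose (log2 fold change 0.17, adjusted p 0.00011). Ube2c overlaps Tnnc2 on the opposite strand over 22.8% of its exon bases, and Tnnc2 was at 0 in all 6 libraries.

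The pair are cell cycle genes, so the letters upstream of their start sites are shown with 2 motifs known from cell cycle promoters in capitals, CCAAT and the cell cycle homology element (TTTGAA or TTCGAA), on either strand. They are the 250 bases before the RefSeq start (GRCm38.p6), chr2:164769679-164769928 on the plus strand for Ube2c and chr7:4812341-4812590 on the minus strand for Ube2s. The GENCODE M21 gene models begin further upstream, at 164769898 for Ube2c and 4812590 for Ube2s. The whole Ube2s window therefore lies inside its gene model, as does the end of the Ube2c window, which holds its TTCAAA.
Ube2c: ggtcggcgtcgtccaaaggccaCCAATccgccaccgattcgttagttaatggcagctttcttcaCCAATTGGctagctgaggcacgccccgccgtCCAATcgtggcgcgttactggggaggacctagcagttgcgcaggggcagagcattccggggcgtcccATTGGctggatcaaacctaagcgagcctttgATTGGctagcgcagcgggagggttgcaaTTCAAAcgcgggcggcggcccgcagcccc
Ube2s: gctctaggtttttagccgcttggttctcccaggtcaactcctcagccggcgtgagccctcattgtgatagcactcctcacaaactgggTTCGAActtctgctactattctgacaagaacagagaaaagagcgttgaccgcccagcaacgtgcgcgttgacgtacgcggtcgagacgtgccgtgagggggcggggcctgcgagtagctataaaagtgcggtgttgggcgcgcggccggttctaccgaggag
Ube2c held 6 CCAAT matches, of which 2 overlap on opposite strands in the run CCAATTGG, and 1 TTTGAA match, which reads TTCAAA here. Ube2s held no CCAAT and 1 TTCGAA. Among 32851 RefSeq promoter windows of this length, CCAAT occurred in 33.8%, TTTGAA in 16% and TTCGAA in 1.34%. The motifs were not particular to the pair, although many other members held none. A window of Ube2f held 3 CCAAT and 1 TTTGAA matches, and that of Ube2t held 3 CCAAT. A match is a description of the letters and not a bound site.

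The complex itself did not move one way. Of its 17 listed genes, all tested, 2 were higher, 3 were lower and 12 did not pass, with a median log2 fold change of -0.005 whose sign turned under other scalings. Anapc2, the cullin-like subunit that with Anapc11 recruits the E2s, fell (96.5 ± 2.31 CPM in H2O2 cells, 108 ± 3.06 in control cells, SD, n = 3 each, adjusted p 0.0022 by edgeR's test). Cdc20, the activator of the complex in mitosis, fell by 0.11 on the log2 scale (adjusted p 0.016), and Anapc7 also fell. Anapc11 and Anapc16 rose, and neither was called by DESeq2, without control replicate 2 or without H2O2 replicate 1. Without control replicate 1 or without control replicate 3, 1 gene of the list was called higher.

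Among 15 cycling-cell markers, 7 rose and 2 fell, with a median log2 fold change of 0.07. Of all tested genes, 9.7% were higher and 10.8% lower, and the marker list was chosen with results of these data known. With the length and GC offset 6 markers were higher and the median was 0.04. Without control replicate 2 or without control replicate 3, 5 were higher. Their summed level was 3888 to 3955 CPM in H2O2 libraries and 3642 to 3763 CPM in control libraries. Cenpf, a kinetochore protein, rose with a log2 fold change of 0.36 (adjusted p 2.7e-08), and Cenpe, a kinetochore motor, with 0.21 (adjusted p 9.2e-05). The mitotic kinases Plk1 and Aurka fell by 0.17 and 0.13 on the log2 scale, and 1 marker of the list was called lower without control replicate 2 or without H2O2 replicate 2. The part of the cycling markers in the levels of Ube2c and Ube2s was not tested, and in bulk RNA fewer cells of a type cannot be told apart from less RNA per cell.

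**Figure D3:**
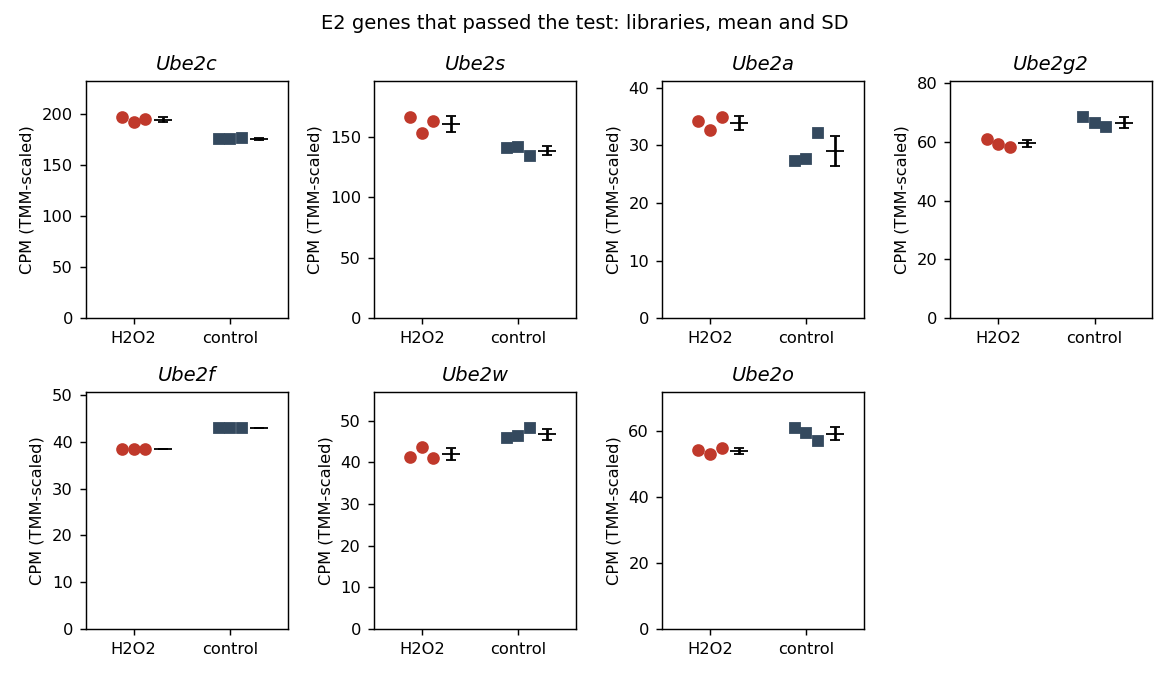
CPM in each library of the 7 E2 genes that passed the test, with H2O2 (circles) left of control (squares) and the mean and SD (n = 3) beside each group. Within each panel the groups do not overlap, from Ube2a with 32.6 to 34.9 CPM in H2O2 libraries and 27.3 to 32.1 in control libraries to Ube2c with 192 to 197 CPM in H2O2 libraries and 176 to 177 in control libraries.

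Ube2a and Ube2b are the mouse RAD6 genes, which ubiquitinate PCNA with Rad18 at stalled replication forks and histone H2B with Rnf20 and Rnf40. Ube2a rose and Ube2b did not pass the test. Ube2a, on the X chromosome at chrX:36873900-36884222, had 34.3, 32.6 and 34.9 CPM in H2O2 libraries, against 27.3, 27.7 and 32.1 CPM in control libraries. Every H2O2 library lay above every control, although control replicate 3 came close to the lowest H2O2 library, and the log2 fold change was 0.23 ± 0.058 (SE) with an adjusted p of 0.0057. Ube2b had 61.3, 62.1 and 61.0 CPM in H2O2 libraries, against 63.7, 61.1 and 62.8 CPM in control libraries, so the groups overlapped (log2 fold change -0.03 ± 0.039, adjusted p 0.71).

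The 2 coding sequences are 77.6% identical over 459 bases, with no shared run longer than 17 bases, and neither transcript shares a 50-base word with another gene. The count of Ube2a relative to Ube2b within a library was 0.560, 0.525 and 0.573 in H2O2 libraries, against 0.429, 0.453 and 0.511 in control libraries. The groups did not overlap, and the 2-sided exact permutation test gave p = 0.1, the smallest that 3 against 3 libraries allow. This was 1 of 8 ratios of related E2 genes, a set chosen after the values were seen, and the p adjusted over the 8 was 0.2.

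The other E2s of this group did not pass the test. Ube2n (UBC13), which builds signalling chains that do not mark proteins for destruction, had a log2 fold change of 0.04, and its inactive partner Ube2v2 one of -0.07. Ube2t, which with the ligase Fancl ubiquitinates Fancd2 in DNA crosslink repair, had 16.2, 16.8 and 18.7 CPM in H2O2 libraries, against 19.1, 18.7 and 20.8 CPM in control libraries. The highest H2O2 library entered the range of the controls, and the log2 fold change was -0.18 ± 0.070 (SE) with an adjusted p of 0.074. Ube2t was called lower without H2O2 replicate 3 (adjusted p 0.021), with the length and GC offset (adjusted p 0.022) and with the replicate number as a block (adjusted p 0.049).

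Of 20 listed partners of these enzymes, 3 rose, 1 fell and 16 did not pass, with a median log2 fold change of 0.0005 whose sign turned under several settings. Usp1, the protease that removes ubiquitin from PCNA and Fancd2, rose to 181 ± 0.866 CPM in H2O2 cells, against 167 ± 3.36 CPM in control cells (SD, n = 3 each, log2 fold change 0.12, adjusted p 0.0052). Rnf168, a ligase at DNA breaks, and Xiap, an inhibitor of caspases, also rose, and Fanca of the Fanconi core complex fell (log2 fold change -0.13, adjusted p 0.0067). Without H2O2 replicate 1, 1 gene of the list was called higher, and without control replicate 2 the fall was not called. Rad18, Rnf20 and Rnf40 had log2 fold changes of 0.06, 0.02 and -0.04 and did not pass.

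A group of 3 E2s serves the destruction of misfolded proteins from the endoplasmic reticulum (ERAD), and 1 of them changed. Ube2g2, a soluble E2 that Aup1 brings to the membrane, fell. It lies at chr10:77622275-77645993 and had 60.8, 59.3 and 58.3 CPM in H2O2 libraries, against 68.3, 66.4 and 64.9 CPM in control libraries. The groups did not overlap, with a log2 fold change of -0.16 ± 0.040 (SE) and an adjusted p of 0.0037. Over 10.3% of its exon bases another gene, Gm49325 or Mir1930, is annotated on the same strand. The membrane-anchored E2s Ube2j1 and Ube2j2 had log2 fold changes of -0.03 and 0.003 and did not pass.

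Ube2g1, the nearest relative of Ube2g2, serves cullin ligases rather than the endoplasmic reticulum and had 53.1, 53.2 and 52.9 CPM in H2O2 libraries, against 50.6, 52.0 and 49.3 CPM in control libraries. All 3 H2O2 libraries lay above the controls, but the gene did not pass (log2 fold change 0.07 ± 0.041, adjusted p 0.29). The ratio of Ube2g2 to Ube2g1 counts was 1.12 ± 0.0220 in H2O2 libraries and 1.31 ± 0.0375 in control libraries (SD, n = 3 each, exact permutation p = 0.1, adjusted 0.2). No H2O2 ratio reached the lowest control ratio.

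Of the 17 listed ERAD ligases and cofactors, 15 were tested, of which 5 fell, 1 rose and 9 did not pass. Their median log2 fold change was -0.04, and of all tested genes 10.8% were lower and 9.7% higher. Vcp, the ATPase that pulls ubiquitinated proteins out of the membrane, fell to 492 ± 3.82 CPM in H2O2 cells, against 598 ± 8.37 CPM in control cells (SD, n = 3 each, log2 fold change -0.28, adjusted p 1.3e-08). Rnf185, a membrane ligase, fell by 0.25 on the log2 scale (adjusted p 1.7e-05). Herpud1 and Sel1l of the Syvn1 ligase complex and Nploc4, a cofactor of Vcp, also fell, while Aup1 had a log2 fold change of 0.09 and did not pass. The rise of March6, an ERAD ligase, was not called by DESeq2, with the length and GC offset, without control replicate 2 or without control replicate 3, and with upper-quartile factors or a scaling without ribosomal genes 3 genes of the list were higher.

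NEDD8 is attached to cullins, which switches on the largest family of ubiquitin ligases. It has 2 E2s in the mouse, Ube2m for most cullins and Ube2f for Cul5. Ube2f fell, while Ube2m passed under the length and GC offset alone among the 17 alternatives, with or without the block. Ube2f, at chr1:91250304-91290337, had 38.4, 38.4 and 38.5 CPM in H2O2 libraries, against 42.9 CPM in each control library. The libraries of a group nearly coincided and the groups did not overlap, with a log2 fold change of -0.16 ± 0.044 (SE) and an adjusted p of 0.011. Of its 50-base words, 21.8% also occur in the genes Gm7099 and Gm5434, so part of its reads may have been discarded or assigned to those genes.

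Ube2m had 184, 188 and 199 CPM in H2O2 libraries, against 199, 186 and 195 CPM in control libraries. The groups overlapped, with a log2 fold change of -0.02 ± 0.034 and an adjusted p of 0.70. With the length and GC offset Ube2m was called lower as well (log2 fold change -0.11, adjusted p 0.018). The ratio of Ube2f to Ube2m counts was 0.202 ± 0.00767 in H2O2 libraries and 0.222 ± 0.00763 in control libraries (SD, n = 3 each, exact permutation p = 0.1, adjusted 0.2). Uba3, the catalytic subunit of the E1 for NEDD8, also fell (108 ± 2.26 CPM in H2O2 cells, 120 ± 2.77 in control cells, adjusted p 0.0024), while its partner Nae1 and NEDD8 itself (Nedd8) had log2 fold changes of -0.06 and 0.001 and did not pass.

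Among 20 listed cullins, RING subunits and NEDD8 ligation factors, 18 were tested, of which 2 rose, 5 fell and 11 did not pass. Their median log2 fold change was -0.03, and of all tested genes 9.7% were higher and 10.8% lower. Ddb1, the adaptor of Cul4 ligases, fell to 604 ± 16.8 CPM in H2O2 cells, against 684 ± 12.2 CPM in control cells (adjusted p 3.5e-05). Dcun1d5, which helps to transfer NEDD8 to cullins, rose to 81.4 ± 2.32 CPM in H2O2 cells, against 68.4 ± 3.25 CPM in control cells (adjusted p 5.4e-05). Cul7, Dcun1d2, Cul2 and the exchange factor Cand1 fell and the adaptor Skp1a rose. Without control replicate 2, control replicate 3 or H2O2 replicate 1, 3 genes of the list were called lower, and 1 was called higher without H2O2 replicate 1. Cul5 and Rnf7, the cullin and RING protein that work with Ube2f, had log2 fold changes of -0.07 and -0.05 and did not pass.

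Ube2z carries FAT10 and ubiquitin. It had a log2 fold change of -0.03 and did not pass. Of 13 SUMO ligases and proteases, 1 rose, 2 fell and 10 did not pass, with a median log2 fold change of -0.02. The nuclear pore ligase Ranbp2 rose to 222 ± 3.8 CPM in H2O2 cells, against 198 ± 2.09 CPM in control cells, and the ligase Pias4 fell to 61.1 ± 2.08 CPM in H2O2 cells, against 69.5 ± 1.73 CPM in control cells (adjusted p 0.00019 and 0.0013 by edgeR's test). Rangap1, a classic SUMO target at the pore, fell as well, and 1 gene of the list was called lower with the length and GC offset or without control replicate 2. Ubd, the gene of FAT10, was at 0 in all 6 libraries.

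Of the 6 tested genes of the UBE2D and UBE2E families, 0 passed edgeR's test, 0 had an unadjusted p under 0.05, and 0 passed with DESeq2 or limma-voom. These are the enzymes that many RING ligases use to place the first ubiquitin. Their most abundant member per length, Ube2d3, had 275, 270 and 279 CPM in H2O2 libraries, against 257, 275 and 272 CPM in control libraries, which overlap (log2 fold change 0.04 ± 0.031, adjusted p 0.44). The log2 fold changes of the other 5 ran between -0.03 for Ube2e1 and 0.11 for Ube2e2. Ube2d2a and Ube2d3 are 86.3% identical in coding sequence, with no shared run longer than 42 bases. Of their 50-base words, 16.2% for Ube2d2a and 16.5% for Ube2d3 occur in other genes. For Ube2e1 the share was 59%, with Nkiras1 among those genes, and Nkiras1 lies opposite 16.1% of the exon bases of Ube2e1.

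The 4 E2s grouped here as chain builders are Ube2g1, Ube2k, Ube2r2 and Ube2h, which serves the GID ligase. They did not pass either by edgeR, DESeq2 or limma-voom, although Ube2h and Ube2k had an unadjusted p under 0.05 in edgeR's test. With the length and GC offset Ube2h was called higher (log2 fold change 0.11, adjusted p 0.042) and Ube2k lower (log2 fold change -0.10, adjusted p 0.04). Of the 50-base words of Ube2h, 46.3% also occur in other genes, so part of its reads may have been discarded or assigned to those genes. Ube2r2, the most abundant per length, had 160, 154 and 160 CPM in H2O2 libraries, against 161, 155 and 159 CPM in control libraries. The groups overlapped, and its log2 fold change of -0.01 ± 0.032 (adjusted p 0.91) took the other sign, up to 0.03, under several settings. Ube2h and Ube2k had log2 fold changes of 0.08 and -0.07. The close relative of Ube2r2 that keeps the name Cdc34 rose to 101 ± 1.53 CPM in H2O2 cells, against 92.1 ± 2.04 CPM in control cells (log2 fold change 0.14, adjusted p 0.0055).

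Ube2l3 serves the RBR and HECT ligases, which pass ubiquitin through a cysteine of their own, and its relative Ube2l6 is the main E2 for the interferon-induced modifier ISG15. Neither passed by edgeR, DESeq2 or limma-voom, and neither had an unadjusted p under 0.05 in edgeR's test. Ube2l6 had 79.1, 73.5 and 74.1 CPM in H2O2 libraries, against 69.1, 75.3 and 76.3 CPM in control libraries, which overlap (log2 fold change 0.04 ± 0.042, adjusted p 0.57). Without control replicate 1 its log2 fold change was -7.08e-05. Ube2l3 had a log2 fold change of -0.05 with all H2O2 libraries below the controls, and 28.6% of its exon bases lie opposite the gene Ydjc.

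The list of ISG15 partners was chosen with results of these data known, so its counts are a description. Of the 8 listed, 5 fell, 1 rose and 2 did not pass, with a median log2 fold change of -0.11. Of all tested genes, 10.8% were lower and 9.7% higher. Without control replicate 3, 3 of the list were called lower. Isg15 fell to 139 ± 7.21 CPM in H2O2 cells, against 162 ± 9.12 CPM in control cells (adjusted p 0.00014), and the transcription factor Irf1 fell by 0.22 on the log2 scale (adjusted p 0.00038). Usp18, which removes ISG15, and Trim25, a ligase for ISG15, fell, and Irf7 rose by a log2 fold change of 0.17. Of 23 tested RBR and HECT ligases, 4 fell (Rnf19b, Smurf1, Rnf31 and Nedd4l), 0 rose by edgeR, DESeq2 or limma-voom (1 at an unadjusted p under 0.05) and 19 did not pass, with a median of -0.02. Rnf19b fell to 43.2 ± 2.04 CPM in H2O2 cells, against 50.7 ± 0.648 CPM in control cells. Genes of the list called lower numbered 2 by DESeq2, without control replicate 2 or without H2O2 replicate 2, and 1 gene was called higher without H2O2 replicate 3.

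Among the large and less studied E2s, 2 of 5 tested genes fell, where 10.8% of all tested genes were lower. Ube2w, which attaches ubiquitin to the amino terminus of proteins, lies at chr1:16540790-16619489 and had 41.2, 43.7 and 41.0 CPM in H2O2 libraries, against 45.8, 46.2 and 48.2 CPM in control libraries. The groups did not overlap, with a log2 fold change of -0.15 ± 0.045 (SE) and an adjusted p of 0.016. Ube2o, which combines E2 and ligase activity in 1 long protein, lies at chr11:116537740-116581447 and had 54.3, 53.1 and 54.8 CPM in H2O2 libraries, against 61.0, 59.6 and 57.1 CPM in control libraries. Again no library of 1 group entered the range of the other, and the log2 fold change was -0.13 ± 0.041 with an adjusted p of 0.022. Ube2w was not called by DESeq2, nor without control replicate 3, H2O2 replicate 1 or H2O2 replicate 3. Ube2o was not called by DESeq2, with the length and GC offset, or without control replicate 1, control replicate 2, H2O2 replicate 1 or H2O2 replicate 2.

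The remaining 3 of this group did not pass. Ube2q1 had 108, 112 and 115 CPM in H2O2 libraries, against 119, 113 and 115 CPM in control libraries, which overlap (log2 fold change -0.05 ± 0.036, adjusted p 0.39), and Ube2q2 had a log2 fold change of 0.01. Ube2ql1 was low, with 7.70, 7.39 and 7.77 CPM in H2O2 libraries, against 8.25, 9.38 and 9.18 CPM in control libraries. Its groups did not overlap, but with so few counts the standard error was 0.091 and the adjusted p 0.078, and it was called lower without control replicate 1. Ube2cbp carries a Ube2 symbol but is a ligase, also called Ube3d, and had 6.50, 5.90 and 5.47 CPM in H2O2 libraries, against 7.41, 6.48 and 6.13 CPM in control libraries (log2 fold change -0.17 ± 0.108, adjusted p 0.31).

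**Figure D4:**
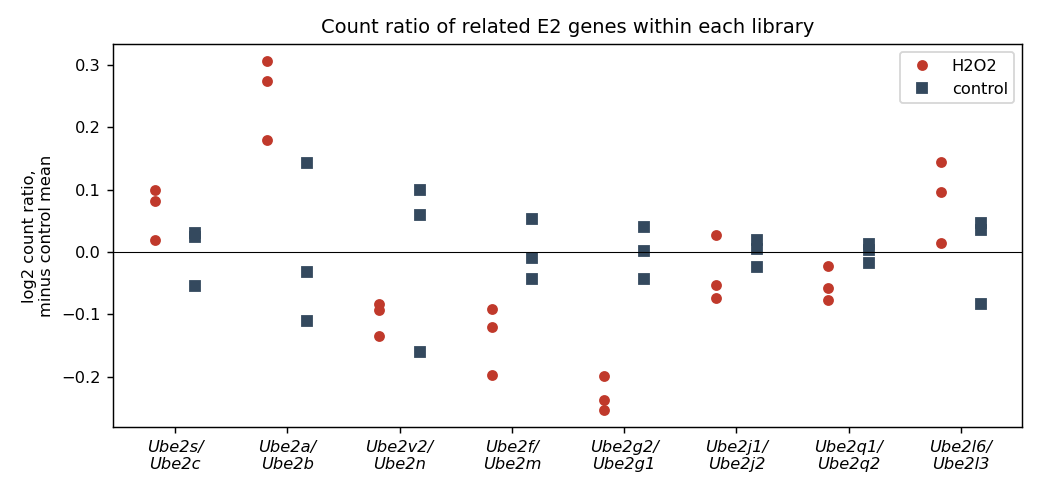
Log2 ratio of the counts of 2 related E2 genes within each library, minus the mean of the controls, for 8 pairs, with H2O2 (circles) left of control (squares). For Ube2a over Ube2b every H2O2 library lies above every control, and for Ube2f over Ube2m, Ube2g2 over Ube2g1 and Ube2q1 over Ube2q2 every H2O2 library lies below (exact permutation p = 0.1 each).

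Upstream of the E2s, 3 of the 8 E1 genes fell, and all 8 had a log2 fold change below 0, with a median of -0.07. Of all tested genes, 10.8% were lower and 9.7% higher, with a median log2 fold change of -0.004. The E1 list was chosen with results of these data known, so its counts are a description. Uba1, the main E1 for ubiquitin, had 767, 788 and 793 CPM in H2O2 libraries, against 867, 894 and 894 CPM in control libraries. The groups did not overlap, with a log2 fold change of -0.18 ± 0.027 (SE) and an adjusted p of 2.1e-05. Of 7 E2 genes under other names, 2 rose, 5 did not pass and 0 fell by edgeR, DESeq2, limma-voom or an unadjusted p under 0.05, with a median log2 fold change of 0.05. These were Cdc34 and Ufc1, the E2 for UFM1 (71.9 ± 2.26 CPM in H2O2 cells, 65.0 ± 2.86 in control cells, adjusted p 0.011). With the length and GC offset neither was called, and 1 gene of the list was called higher without control replicate 2 or without H2O2 replicate 1.

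The genes of ubiquitin and its relatives went both ways. Of 12 tested, 4 rose, 3 fell and 5 did not pass, where 9.7% of all tested genes were higher and 10.8% lower. Their median log2 fold change was 0.04, which was -0.02 with the length and GC offset. Rps27a, which encodes ubiquitin fused to a ribosomal protein, had 352, 321 and 323 CPM in H2O2 libraries, against 221, 221 and 224 CPM in control libraries (log2 fold change 0.58 ± 0.033, adjusted p 1.4e-12). Fau, a ubiquitin-like protein fused to another ribosomal protein, rose by a log2 fold change of 0.25 (adjusted p 4.3e-06), and the polyubiquitin gene Ubb rose by less. Isg15 and Sumo3 fell, and 2 genes of the list were called higher with the length and GC offset or without H2O2 replicate 1.

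Over the 10 pathway lists and the cycling markers, 154 different genes were tested, of which 23 rose and 32 fell, or 35.7% of them, where 20.5% of all tested genes passed. These lists were chosen with results of these data known, so nothing particular to them is read from that share. Their median log2 fold change was -0.01. Without H2O2 replicate 1, 14 were higher, and without control replicate 2, 21 were lower.

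**Figure D5:**
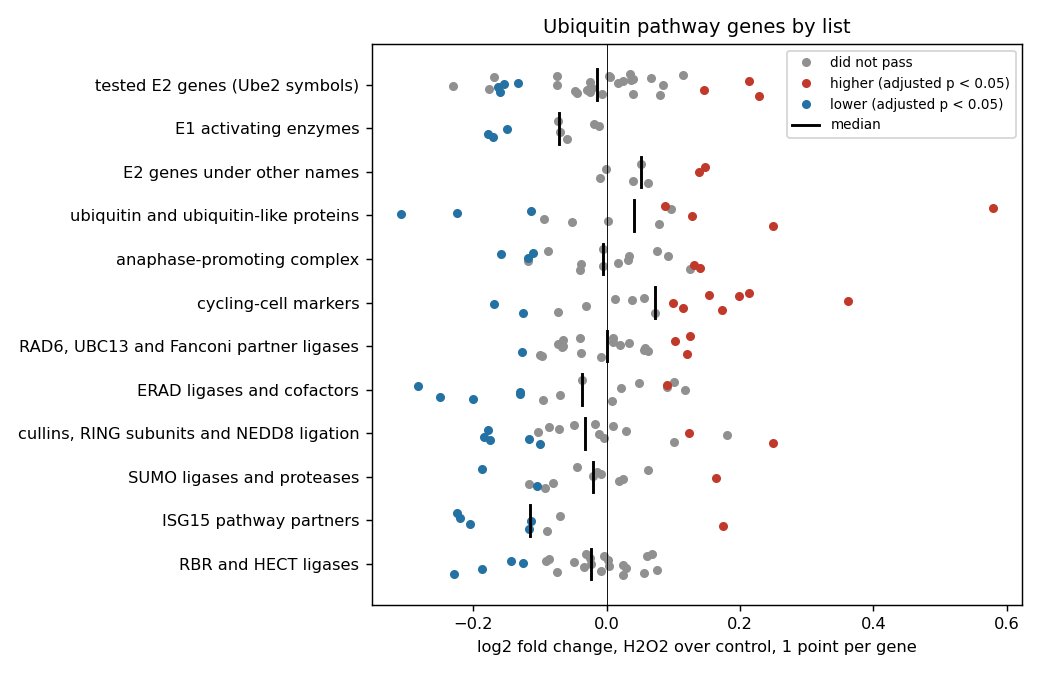
Log2 fold change (H2O2 over control) of each tested gene of the E2 set, the pathway lists and the cycling-cell markers, 1 point per gene, with the median of each list as a bar. The E2 genes lie within 0.23 of 0, while Rps27a reaches 0.58 among the ubiquitin genes and Vcp reaches -0.28 among the ERAD genes.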

How the data were processed

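The authors deposited raw read counts of genes for each library. The submitters' processing notes name the build mm10 and the tools STAR 2.5.3, HTSeq, DESeq2, cutadapt and bcl2fastq 2.17.1.14. The annotation and the strand option of HTSeq are not given in the sources used here, so it is not known how reads of genes that overlap on opposite strands were counted. The 5 HTSeq summary classes were left out. They held 4.76% to 5.46% of reads with no feature, 3.17% to 3.30% ambiguous and 11.0% to 11.7% not unique, and the other 2 classes were 0.

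Of 33006 genes, 12924 passed filterByExpr and were fitted with edgeR 4.0.16 (quasi-likelihood test, TMM factors, treatment only, limma 3.58.1, R 4.3.3), with Benjamini-Hochberg adjustment over all of them and a threshold of 0.05. CPM denote library-scaled counts, computed here with TMM factors. Log2 fold changes are H2O2 over control with the standard error (SE) of that fit. The script was tested on simulated counts, where 11 of 49 genes changed 1.1-fold, 31 of 48 changed 1.2-fold and 13 of 12615 unchanged genes were called. A gene that did not pass may therefore still have changed by a small amount. Transcript lengths, coordinates and overlaps came from GENCODE M21 and promoters from RefSeq GRCm38.p6, with a promoter for 30 members.

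The rule for members and the lists were set with earlier results of these data known, though the rule itself uses gene symbols alone. Genes named in full are those called and the most abundant per length of each role, and of each list up to 2 with the smallest p. A few genes are not reported here by name, though counts and medians over lists include them. Other names were chosen after their values were seen. Alternatives were 4 scalings, DESeq2 1.42.0, limma-voom, 2 filters, the replicate number as a block, an offset for length and GC with and without that block, and leaving out each library.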

Additional observations from a re-analysis of the deposited data

How the results depend on the processing

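The calls of Ube2a, Ube2s, Ube2f and Ube2g2 held under all 17 alternatives, that of Ube2c under 15, of Ube2w under 13 and of Ube2o under 10. The count of higher E2 genes was 3 under each, with Ube2h in the place of Ube2c under the length and GC offset. The count of lower ones was 2 by DESeq2, 6 with that offset and 2 to 4 when 1 library was left out. The median log2 fold change of the members stayed between -0.02 and 0.002. With 1 library left out, all genes called lower numbered 924 to 1313, pathway genes called higher 14 to 25 and lower 21 to 33.

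Values near 0 changed sign. With 1 library left out, log2 fold changes ran between -0.0550 and 0.00363 for Ube2m, between -7.08e-05 and 0.0660 for Ube2l6 and between -0.0226 and 0.0152 for Ube2r2. Ube2r2 had 0.00516 with upper-quartile factors, 0.00154 with scaling without ribosomal genes, 0.00104 with the stricter filter, 0.0275 with the length and GC offset and 0.0273 with that offset and the block. With the offset, Ube2c and Ube2o were not called, and Ube2h, Ube2k, Ube2m and Ube2t were. The causes were not tested.

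Same-numbered libraries of the 2 groups showed little shared deviation from their group means (correlations -0.03, 0.002 and 0.03). These values cannot tell whether such libraries were handled as pairs. With the number as a replicate block, 2738 genes were called, with 3 E2 genes higher and 5 lower, Ube2t being the addition, and no other E2 call changed. Depth limits the 2 tested members under 10 CPM, Ube2ql1 and Ube2cbp, whose standard errors were 0.09 and 0.11 on the log2 scale, against a median of 0.04 over the tested members.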
